A study of Mus musculus with 27 samples.

Results

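Chromosome 19, which carries the Hedgehog regulator Sufu, was followed along its length in 6 mouse medulloblastomas by array comparative genomic hybridization. The array placed 6291 probes on it, of 235402 non-control probes in all (2.67%), and 6286 of them had a value on all 6 arrays. The region was chosen by its readout. Its log2 ratio of tumour over liver DNA was low in the pair of resistant tumours dosed with 80 and 160 mg/kg/day and near 0 in the other 4 tumours. The contrast of these tumours therefore describes the choice, and no test was run on it.

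All 6 tumours were Ptch+/-p53-/- medulloblastoma grafted into nude mice. The 3 resistant tumours came from mice given NVP-LDE225, an antagonist of the Hedgehog receptor component Smo, in divided daily doses adding up to 80, 160 and 40 mg/kg/day, with 1 tumour at each dose. The 3 sensitive tumours came from mice given vehicle (n = 3), and all 6 were collected at day 26. The label of the 160 mg/kg/day tumour is in conflict with itself: status, treatment and dose describe a resistant tumour under NVP-LDE225, while title and source name contain the word vehicle. It was placed with the resistant tumours, and each value at 160 mg/kg/day rests on that reading. Every array compared Cy5-labelled tumour DNA with Cy3-labelled DNA of a wild-type liver, the same liver sample throughout.

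Hedgehog signalling starts when the receptor Ptch1 releases Smo, and ends at the Gli transcription factors. Sufu binds Gli proteins and holds them inactive, downstream of Smo, and Btrc is the substrate-recognition part of a ubiquitin ligase that directs Gli processing and beta-catenin breakdown. Mouse medulloblastoma with Ptch1 mutations is driven by this pathway. A copy-number loss lowers the tumour signal of every probe across the lost stretch. A log2 ratio is an average over all cells of the DNA extract, so a loss in part of the tumour cells and a full loss diluted by host cells of the graft cannot be told apart here.

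Sequences at Sufu and at microRNAs of chromosome 19 show what the lost stretch holds. All are from RefSeq on build GRCm38.p6, a later build than the mm8 positions of the array. The Sufu promoter, 250 bases before to 50 bases after the gene's start (chr19:46396646-46396945, plus strand, capitals after the start), has a GC content of 56.3% and 12 CpG pairs, against medians of 54.7% and 10 over the 1044 promoters of chromosome 19 in the table.

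Sufu promoter: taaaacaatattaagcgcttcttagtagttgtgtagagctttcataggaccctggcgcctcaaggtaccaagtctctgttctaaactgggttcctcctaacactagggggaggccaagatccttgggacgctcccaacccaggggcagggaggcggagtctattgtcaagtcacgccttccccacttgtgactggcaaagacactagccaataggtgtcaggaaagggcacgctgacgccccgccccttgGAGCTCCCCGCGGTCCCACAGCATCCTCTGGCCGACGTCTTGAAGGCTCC

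Of 37 microRNA hairpins on the chromosome in that table, 6 are shown because a gene with probes holds them or lies beside them. Capitals mark the seed, bases 2 to 8, and the 6 seeds differ from each other.

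mmu-miR-204-5p: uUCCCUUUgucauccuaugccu
mmu-miR-107-3p: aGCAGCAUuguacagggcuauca
mmu-miR-101b-3p: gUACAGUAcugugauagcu
mmu-miR-496b: cAACAUGGccaauuccuuucau
mmu-miR-192-5p: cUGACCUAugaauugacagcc
mmu-miR-194-5p: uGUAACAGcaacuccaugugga

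These microRNAs have no probes of their own, so their host genes stand in for them. Trpm3, an ion channel gene that holds Mir204, had 109 probes with a mean log2 ratio of -0.48 at 80 mg/kg/day, -0.765 at 160 and -0.05 at 40, against -0.01 ± 0.003 in vehicle tumours (SD, n = 3). Pank1, a coenzyme A synthesis gene that holds Mir107, had -0.53, -0.76 and -0.01, against -0.01 ± 0.014 (SD, n = 3) in vehicle over 13 probes. Rcl1, a ribosomal RNA processing gene that holds Mir101b, had -0.38, -0.67 and -0.02, against 0.05 ± 0.012 (SD, n = 3) in vehicle. Mir192 and Mir194-2 lie 2.55 and 2.35 kb from 1810013C15Rik, whose 5 probes averaged -0.22, -0.33 and 0.16, against 0.195 ± 0.021 (SD, n = 3) in vehicle. For each of these genes both the 80 and the 160 mg/kg/day tumour lay below the other 4 tumours. So did 432 of the 433 chromosome 19 genes with 3 or more probes, and 12.3% of such genes over the whole array. Gnaq, which holds Mir496b, also lay below the other 4 tumours at both doses. Minus the vehicle mean it was the shallowest of these genes at 80 mg/kg/day, at -0.17, against -0.42 for 1810013C15Rik. It is described with its neighbours below.

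The loss reached along the whole chromosome. The median log2 ratio over its probes was -0.45 at 80 mg/kg/day and -0.74 at 160 mg/kg/day, against -0.03 at 40 mg/kg/day and -0.001, -0.007 and -0.003 in the vehicle tumours. The vehicle medians averaged -0.0036 ± 0.0033 (SD, n = 3). The differences from that average were -0.444 at 80, -0.737 at 160 and -0.03 at 40 mg/kg/day, and they restate the choice of the region. In both low tumours chromosome 19 had the lowest median of the 19 autosomes. The next lowest autosome lay at -0.17 at 80 and -0.28 at 160 mg/kg/day. At 40 mg/kg/day chromosome 19 ranked 10 of 19 from the lowest.

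**Figure D1:**
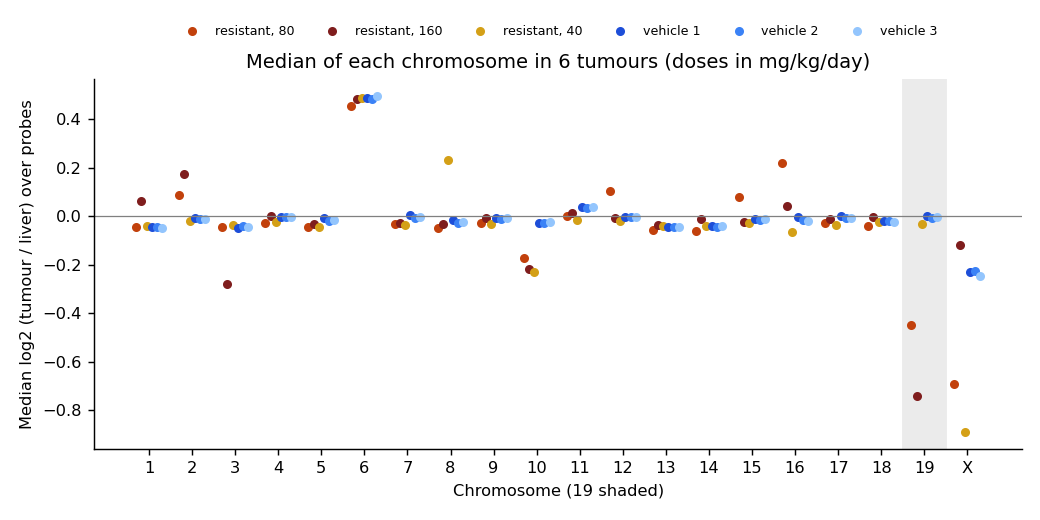
Median log2 ratio of tumour over liver DNA (vertical axis) for each chromosome (horizontal axis, 19 shaded), 1 point per tumour, with resistant tumours in warm colours and vehicle tumours in blue. On chromosome 19 the points at 80 and 160 mg/kg/day lie at -0.45 and -0.74 and the other 4 lie between -0.03 and -0.001.

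If the centre of each array stands for 2 copies, the medians correspond to 1.47 copies at 80 mg/kg/day and 1.20 at 160, against 1.95 at 40 and 1.99 to 2.00 in vehicle. The centre's true copy number was not measured. Chromosome 6, high in every tumour, gives a yardstick: its median was 0.45 at 80, 0.48 at 160 and 0.49 at 40 mg/kg/day, against 0.48 to 0.50 in vehicle. On the processed signals the arrays thus gave about the same height to a change that all tumours share. With the normexp correction described below they did not: chromosome 6 had 0.15 at 80 mg/kg/day, against 0.44 to 0.55 on the other arrays.

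The low values came from the tumour channel. Relative to all autosomes, the median Cy5 signal of chromosome 19 was -0.43 at 80 and -0.72 at 160 mg/kg/day on the log2 scale, against -0.0015 at 40 and 0.01 to 0.03 in vehicle. The Cy3 signal of the liver DNA was 0.02 to 0.03 on all 6 arrays. At least 99.97% of the chromosome's spots were well above background in both channels on each array, and none was saturated.

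The size of the loss at 80 mg/kg/day depended on how background was treated. With normexp correction of the raw signals (offset 50) its median was -0.10, no segment of chromosome 19 was called there, and chromosome 6 in the same tumour was at 0.15 in place of 0.45. At 160 mg/kg/day the median was -0.74 under either treatment. Chromosome 19 remained the lowest autosome at 80 mg/kg/day under normexp, the next lying at -0.05.

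Cutting each profile into segments gave 1 segment at 160 mg/kg/day. It held all 6286 probes (chr19:3147156-61316020) at a mean of -0.72 and was called lost, a call being a mean of -0.3 or lower over at least 5 probes. At 80 mg/kg/day 4 segments were found. The first (chr19:3147156-9135651) had a mean of -0.35, the second (chr19:9139286-14891974) -0.49 and the last (chr19:17999616-61316020) -0.46, and these 3 were called. The segment between them (chr19:14904127-17979819) had -0.24 and missed the call. The shallowest called segment (-0.35) and the uncalled one (-0.24) thus lie on either side of the threshold. The first border fell within Ahnak, a large scaffold protein gene with 13 probes and a mean of -0.34 at 80 mg/kg/day, beside Scgb1a1, a secretoglobin gene, at -0.81 over 2 probes. After subtraction of the vehicle mean no border was placed there, the level being -0.455 from position 3147156 to 10415948. Tle4 and AY512950 were nearest to the second border, and D12619 and AK149175 to the last. Called losses covered 95.1% of the chromosome's probes at 80 and 100% at 160 mg/kg/day. No segment was called at 40 mg/kg/day, where 1 segment at -0.02 spanned the chromosome, or in vehicle, where segments of 5 or more probes lay between -0.13 and 0.12.

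**Figure D2:**
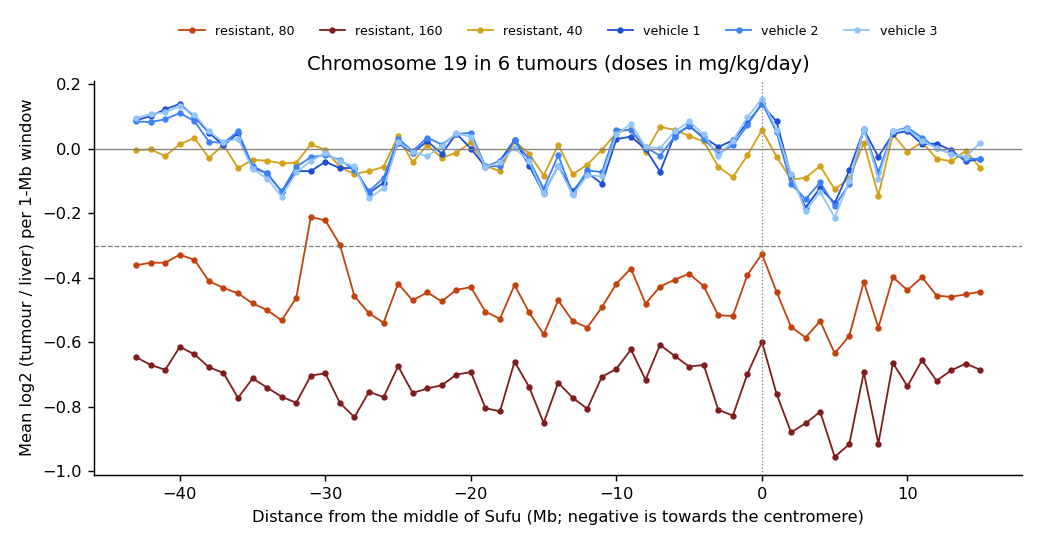
Mean log2 ratio per 1-Mb window (vertical axis) against distance from the middle of Sufu in Mb (horizontal axis), 1 line per tumour, with the call threshold of -0.3 dashed and Sufu dotted. The lines at 80 and 160 mg/kg/day run below the other 4 along the whole chromosome, and the line at 80 mg/kg/day rises to -0.21 in a stretch on the centromeric side of Sufu.

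Window means show how even the loss was. Over 59 windows of 1 Mb, the log2 ratio after subtraction of the vehicle mean ran between -0.85 and -0.58 at 160 mg/kg/day, with a median of -0.72. At 80 mg/kg/day it ran between -0.54 and -0.17 with a median of -0.45, and at 40 mg/kg/day between -0.13 and 0.10 with a median of -0.01. All 59 windows lay at -0.3 or lower at 160 mg/kg/day and 56 did at 80, before and after that subtraction. None did in the other 4 tumours.

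The uncalled stretch at 80 mg/kg/day held Gnaq. After subtraction of the vehicle mean it spanned 3.22 Mb (chr19:14847346-18064659, 313 probes). Its log2 ratio minus the vehicle mean was -0.21 ± 0.20 at 80 mg/kg/day (SD over probes), while the 3 Mb on its left had -0.41 ± 0.19 and the 3 Mb on its right -0.41 ± 0.22. Subtracting the 40 mg/kg/day tumour instead of vehicle put the stretch at chr19:14832565-18064659 with -0.23 ± 0.12, so the right border was the same and the left border took in 1 more probe. Under the assumption of 2 copies at the centre, the stretch corresponds to 1.73 copies and its flanks to 1.502 and 1.508.

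The same stretch stood out in none of the other tumours, which served to find it only as the values subtracted. The interval was picked as the shallowest segment at 80 mg/kg/day, so a positive step in that tumour follows from the choice. The interval minus its flanks, on the log2 ratio as measured, was 0.26 at 80 mg/kg/day. It was 0.04 at 160 and 0.03 at 40 mg/kg/day, and 0.04, 0.06 and 0.07 in the vehicle tumours. With normexp correction the step was 0.05 at 80 mg/kg/day, within the range of 0.02 to 0.08 in the other 5 tumours, so it did not stand out there. With a segmentation penalty of factor 6 in place of 3, the stretch was not separated and all 6286 probes formed 1 called loss at -0.44. At 160 mg/kg/day the interval had, on the processed signals, -0.69 minus the vehicle mean, between flanks of -0.665 and -0.69.

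**Figure D3:**
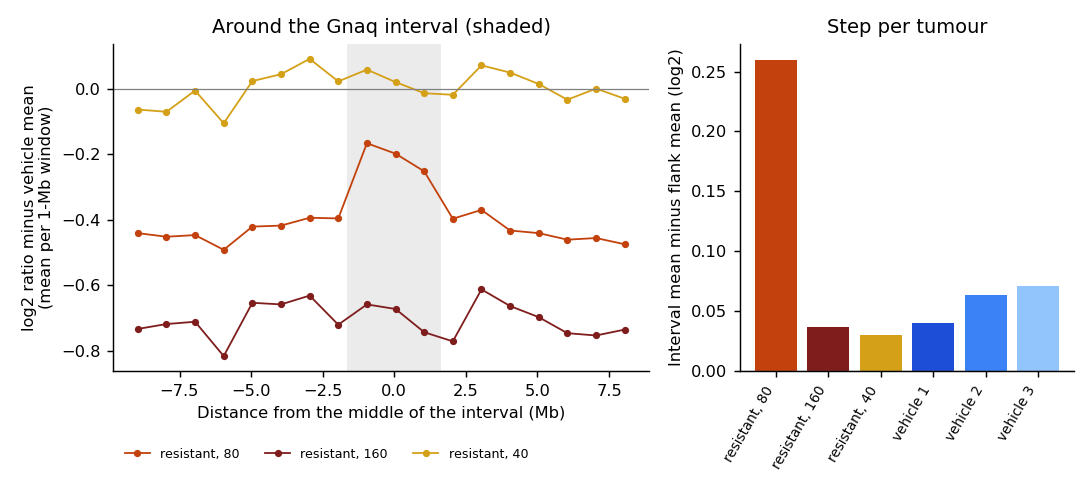
Left, log2 ratio minus the vehicle mean per 1-Mb window (vertical axis) against distance from the middle of the Gnaq interval in Mb (horizontal axis, interval shaded) in the 3 resistant tumours. Right, mean of the interval minus mean of its 3-Mb flanks in each tumour, 0.26 at 80 mg/kg/day and 0.03 to 0.07 in the other 5.

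The interval held 18 genes as named by the array, 8 of them with 5 or more probes. Gnaq encodes a G protein alpha subunit that activates phospholipase C beta, and its 35 probes averaged -0.20 at 80, -0.64 at 160 and 0.01 at 40 mg/kg/day, against -0.03 ± 0.02 in vehicle (SD, n = 3). Gna14, a related alpha subunit with 25 probes, had -0.25, -0.76 and -0.015, against -0.02 ± 0.02 in vehicle (SD, n = 3). Vps13a, a lipid transfer protein gene with 21 probes, had -0.19, -0.66 and 0.035, against -0.02 ± 0.03 (SD, n = 3). Each was intermediate at 80 mg/kg/day and fully inside the loss at 160. Cep78, a centrosomal protein gene, and Gcnt1, a glycosyltransferase gene, had -0.27 and -0.31 at 80 and -0.81 and -0.75 at 160 mg/kg/day. Over the 8 genes the value minus the vehicle mean ran between -0.30 and -0.17 at 80 and between -0.77 and -0.61 at 160 mg/kg/day. The 242 other genes with 5 or more probes had a median of -0.445 at 80 mg/kg/day, and the highest of them stood at -0.154.

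Beyond the interval the mean was similar on either side, at -0.41 minus the vehicle mean over the left and over the right flank. Tle4, a transcriptional corepressor gene to the left with 22 probes, had -0.41 at 80 mg/kg/day on that scale. The genes with 5 or more probes next on the right varied: Ostf1 had -0.285, 2410127L17Rik -0.44, the channel gene Trpm6 -0.22 and the nuclear receptor gene Rorb -0.27. Against the 40 mg/kg/day tumour these 4 had -0.46, -0.41, -0.25 and -0.36.

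Losses elsewhere in the same tumours set the depth of chromosome 19 in context. At 80 mg/kg/day its called losses averaged -0.45 ± 0.21 minus the vehicle mean (SD over probes), against -0.59 ± 0.24 in the called losses of chromosome 10 and -0.46 ± 0.26 in those of X. At 160 mg/kg/day it averaged -0.73 ± 0.39, against -0.64 ± 0.37 on chromosome 3, -0.70 ± 0.37 on chromosome 10 and -0.51 ± 0.38 on X. On this scale chromosome 19 was thus shallower than chromosome 10 at 80 mg/kg/day and about level with it at 160, with 1 tumour per dose and no test. Called losses on chromosome 16 were shared with vehicle and stood at 0.01 on this scale at both doses. As measured they were deeper, at -0.86 at both doses, against -0.45 and -0.72 on chromosome 19. In vehicle they had -0.85, -0.86 and -0.90. Chromosome 19 was the only autosome with over 90% of its probes in called losses at either dose, the next having 30.4% at 80 and 41.7% at 160 mg/kg/day. Chromosome X had 98.1% at 80, above the 95.1% of chromosome 19, and 12.4% at 160 mg/kg/day.

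**Figure D4:**
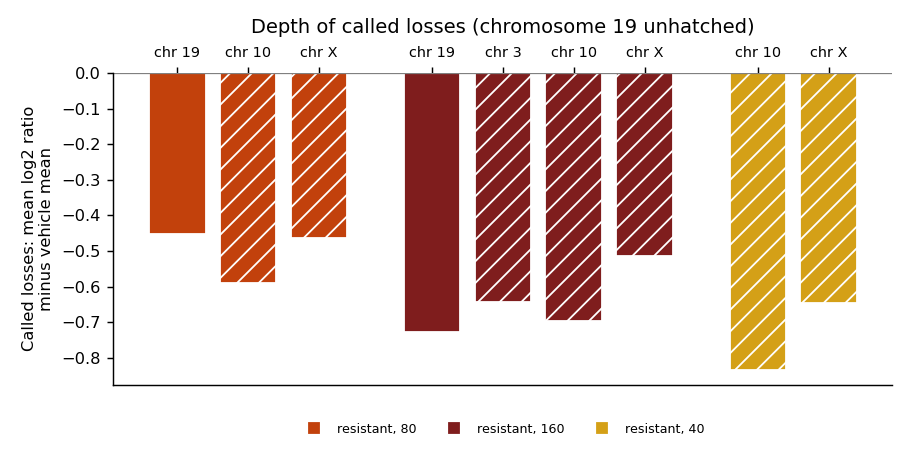
Mean log2 ratio minus the vehicle mean over the probes of called losses (vertical axis) on chromosomes 19, 3, 10 and X (bars), grouped by resistant tumour. Chromosome 19 stands at -0.45 against -0.59 on chromosome 10 at 80 mg/kg/day and at -0.73 against -0.70 at 160, and has no called loss at 40 mg/kg/day.

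By the segment call, 817 of the 835 genes named on chromosome 19 lay inside losses at 80 mg/kg/day (97.8%), against 8.6% of the 25860 genes on the array. At 160 mg/kg/day all 835 did, against 7.17% of all genes. None did at 40 mg/kg/day, where 5.75% of all genes lay in losses, or in vehicle tumours 1, 2 and 3, where 0.951%, 0.889% and 1.22% did. Of all genes in called losses, chromosome 19 held 36.7% at 80 and 45.0% at 160 mg/kg/day. These shares restate the choice of the chromosome and are read no further.

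Single genes followed the segment, with an offset of their own. Of 433 genes with 3 or more probes, 432 had lower mean log2 ratios at both 80 and 160 mg/kg/day than in each of the other 4 tumours, where 12.3% of such genes over the whole array did. The exception, named after its value was seen, was Acta2, the smooth muscle actin gene. It averaged -0.15 at 80, -0.07 at 160 and 0.56 at 40 mg/kg/day, and -0.20, 0.15 and 0.05 in the vehicle tumours. Minus the vehicle mean it stood at -0.07 at 160 mg/kg/day, the highest of 250 genes with 5 or more probes, whose median was -0.71. Against the 40 mg/kg/day tumour, where Acta2 was itself high, it stood at -0.63, near the median of -0.70 over these genes.

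Part of that offset recurred between arrays, and probe by probe it did so most among the resistant tumours. Across the 6286 probes the log2 ratios of pairs of resistant tumours had Pearson's r between 0.86 and 0.91 and pairs of vehicle tumours between 0.54 and 0.78. Of the mixed pairs, those with vehicle tumour 1 had 0.25, 0.30 and 0.39, and those with vehicle tumours 2 and 3 lay between 0.66 and 0.76. Over the 59 windows of 1 Mb resistant and vehicle pairs changed places, and mixed pairs again reached lowest. Vehicle pairs had r between 0.96 and 0.98, resistant pairs between 0.67 and 0.89 and mixed pairs between 0.57 and 0.745. These are correlations across probes or windows, which share sequence and liver reference and are not independent replicates. Gene values below are given as measured or minus the vehicle mean, as stated beside each, and subtraction of the vehicle mean removes only the part that vehicle tumours share.

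Sufu had 13 probes (chr19:46456334-46535929 on mm8, the span of its probes; the files do not place them in exons or introns). Its mean log2 ratio was -0.22 at 80 and -0.395 at 160 mg/kg/day, against 0.18 at 40 and 0.13, 0.21 and 0.21 in the vehicle tumours. The other 4 tumours all stood above 0, so the measured mean at 80 mg/kg/day did not reach -0.3 although the segment around it did. Minus the vehicle mean, Sufu had -0.41 ± 0.20 at 80, -0.58 ± 0.28 at 160 and -0.01 ± 0.15 at 40 mg/kg/day (SD over 13 probes). All 13 probes were below their vehicle mean at both 80 and 160 mg/kg/day, and 9 were at 40. This is not particular to Sufu. All 433 chromosome 19 genes with 3 or more probes had means below vehicle at 80 and at 160 mg/kg/day, and 257 did at 40. The share of all probes on the array below their vehicle mean was not counted. Single probes ran from -0.98 to 0.38 at 80 and from -1.215 to 0.49 at 160 mg/kg/day, against -0.53 to 1.03 at 40.

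Btrc, which lies within 1 Mb of Sufu, had 20 probes (chr19:45419168-45572754). As measured it averaged -0.37 at 80 and -0.67 at 160 mg/kg/day, against 0.00 at 40 and 0.02, 0.06 and 0.10 in vehicle. Other Hedgehog and ciliary genes moved with them. Arl3, a small GTPase of ciliary cargo release next to Sufu, had -0.55 at 80 and -0.97 at 160 mg/kg/day minus the vehicle mean. Bbs1, a subunit of the BBSome that carries membrane proteins in cilia, had -0.39 and -0.61, and Adrbk1, the older name of Grk2, a kinase that phosphorylates Smo, had -0.35 and -0.555. All 6 listed genes with probes lay inside called losses at both doses. So did 97.8% of the chromosome's genes at 80 and 100% at 160 mg/kg/day, against 8.6% and 7.17% over the array.

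Pik3ap1, an adaptor that binds PI3K, had 16 probes and as measured -0.44 at 80 and -0.73 at 160 mg/kg/day, against 0.03 at 40 and 0.05 ± 0.03 in vehicle (SD, n = 3). All 11 growth-signalling genes reported lay inside called losses at both doses. The shares were 97.8% (80) and 100% (160 mg/kg/day) of the chromosome's genes, and 8.6% and 7.17% over the array. Minus the vehicle mean, the 7 listed genes with 3 or more probes ran between -0.51 and -0.39 at 80 and between -0.89 and -0.52 at 160. Chuk, Jak2, Shoc2 and Map3k11, kinases and a Ras-pathway scaffold, fall in these ranges.

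Among cell-death genes, Fas, the death receptor, had a mean as measured of -0.56 at 80 and -0.82 at 160 mg/kg/day, against -0.08 at 40 and -0.09, 0.00 and 0.03 in vehicle over 6 probes. Bad, which promotes apoptosis by binding Bcl-2 family survival proteins, rested on 3 probes and had -0.02 and -0.20, against 0.295 at 40 and 0.16, 0.255 and 0.28 in vehicle. Its segment was called lost at both doses, but its own mean reached -0.3 at neither, and minus the vehicle mean it stood at -0.255 and -0.43. It was the shallowest of the 32 listed genes with 3 or more probes at 80 mg/kg/day.

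Genes of mitosis, replication and repair behaved alike. Kif11, the spindle motor kinesin, had a mean as measured of -0.41 at 80 and -0.79 at 160 mg/kg/day, against -0.03 at 40 and 0.10, 0.07 and 0.09 in vehicle. Smc3, a cohesin subunit, had -0.38 and -0.65, against 0.14 at 40 and 0.20 ± 0.02 in vehicle (SD, n = 3). Incenp, of the chromosomal passenger complex, had -0.46 and -0.78, against -0.05 at 40 and 0.02 ± 0.05 in vehicle (SD, n = 3). All 17 listed genes with probes lay inside called losses at both doses. The shares were 97.8% (80) and 100% (160 mg/kg/day) of the chromosome's genes, and 8.6% and 7.17% over the array. Minus the vehicle mean, the 9 listed genes with 3 or more probes had medians of -0.45 at 80 and -0.71 at 160 mg/kg/day.

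The chromosome also holds Wnt, immune and patterning genes. Tcf7l2, the Wnt transcription factor, had 27 probes and stood at -0.50 at 80 and -0.755 at 160 mg/kg/day minus the vehicle mean. On that scale Lrp5, the Wnt co-receptor near the proximal end, had -0.53 and -0.89. Cd274, which encodes PD-L1, had -0.315 and -0.23 over 4 probes, the shallowest at 160 mg/kg/day among the 32 listed genes with 3 or more probes, and its neighbour Pdcd1lg2 had -0.34 and -0.58 over 8. Gfra1, a GDNF receptor near the distal end, had -0.46 and -0.70 over 28 probes, and Pax2, a midbrain and hindbrain patterning factor, had -0.43 and -0.59 over 8.

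Over all lists, 53 of 62 names had probes and all 53 lay inside called losses at 80 and at 160 mg/kg/day. So did 97.8% and 100% of the chromosome's genes, against 8.6% and 7.17% over the array. The 32 listed genes with 3 or more probes had a median of -0.45 (range -0.60 to -0.255) at 80 and -0.69 (range -0.97 to -0.23) at 160 mg/kg/day minus the vehicle mean, and -0.02 (range -0.25 to 0.215) at 40. All 433 genes of the chromosome with as many probes had medians of -0.45, -0.72 and -0.02 on this scale, so the listed genes sat at the level of the chromosome.

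**Figure D5:**
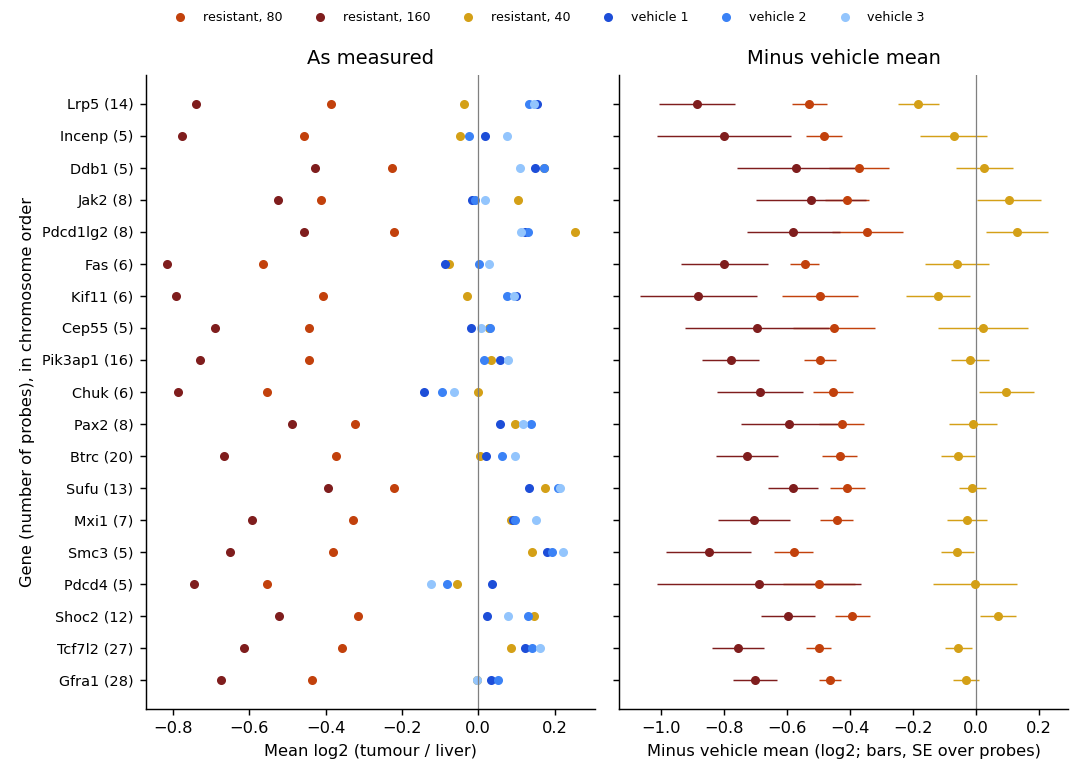
Mean log2 ratio of the 19 listed genes with 5 or more probes (rows, in chromosome order, probe number in brackets), as measured in 6 tumours (left) and minus the vehicle mean in 3 resistant tumours (right, bars are SE over probes). Every gene has the 160 and 80 mg/kg/day points below the other 4 tumours, as Sufu does at -0.395 and -0.22 against 0.13 to 0.21. The same holds for 432 of the chromosome's 433 genes with 3 or more probes and for 12.3% over the whole array.

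Among the 250 genes with 5 or more probes, lowest at 80 mg/kg/day were Spfh1 (now Erlin1) at -0.80, AK016768 at -0.765 and the lipoprotein receptor gene Vldlr at -0.685. They were also below 0 at 40 mg/kg/day, at -0.38, -0.34 and -0.245, and in vehicle, at averages of -0.41, -0.28 and -0.15. Spfh1 owed its place to 1 probe, and the other 6, a split made after seeing the data, averaged -0.40 at 80 mg/kg/day, against -0.02 at 40 and -0.001 to 0.01 in vehicle. Highest at 80 were the choline kinase gene Chka at -0.095, Plcb3, a phospholipase C gene, at -0.115 and AK077035 at -0.14. At 160 mg/kg/day AK016768 at -1.21, Vldlr at -1.10 and AK014581 at -1.07 were lowest, the last with -0.02 on average in vehicle, and Acta2, AK077035 at -0.22 and Chka at -0.23 highest. The SD between genes at 160 mg/kg/day was 0.17 as measured, 0.14 after subtraction of the vehicle mean and 0.085 after subtraction of the 40 mg/kg/day tumour.

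That probe in Spfh1 (chr19:44100753-44100812) lay far below its neighbours on every array. It had -3.19 at 80, -2.86 at 160 and -2.55 at 40 mg/kg/day, while the vehicle tumours had -3.155, -2.86 and -2.77. It was the only probe of the chromosome more than 1.5 from the median of its neighbours on 5 or more arrays.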

How the data were processed

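DNA of 6 tumours was read on 2-colour oligonucleotide arrays, tumour in Cy5 and liver in Cy3 per the labels. The deposited scanner files were written by Feature Extraction 9.5.3.1, with positions on mm8, per the file headers, and its processed intensity values were background-subtracted, detrended and dye-normalized by that program. The authors' deposited value table holds log10 ratios of these arrays, tumour over liver, with column medians from -0.0109 to -0.0016 and r of 0.9996 or more to the scanner ratios. It was converted to log2 and served as an alternative.

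Here, the median over autosomal probes was taken off each array's log2 ratios, control and outlier spots were dropped, and spots of 1 probe name were averaged. Segments came from penalised least squares (penalty factor 3), tried on simulated profiles with independent noise around set levels. Those profiles lacked the level changes that arrays share along the chromosome, so they cannot tell whether such changes set a border. A call needs a mean at least 0.3 from 0 over 5 or more probes, and a gene is inside a loss when its probes' median segment mean is -0.3 or lower. Names are the files' own: 553 of 835 matched a RefSeq symbol or synonym of chromosome 19 (GRCm38.p6), and its coordinates placed microRNAs beside host genes. Genes were named from 7 lists, of which some members are not reported here, from the 3 lowest and 3 highest genes with 5 or more probes at 80 and 160 mg/kg/day, and from segment borders. The members and lists were chosen with earlier results of these data known. The chance of a difference was not tested, since each resistant dose had 1 tumour and the contrast chose the region, and nothing says whether the vehicle tumours came from separate mice. Noise between neighbouring probes was 0.28 at 80, 0.46 at 160 and 0.32 at 40 mg/kg/day, and 0.13 to 0.20 in vehicle (SD). The number of arrays limits the precision. The 21 expression arrays were not used, because no table here pairs their probe sets with genes, so the planned expression tests and the cell type marker check were not made. Python 3.11.15, numpy 2.4.6, pandas 2.3.3, numba 0.67.0, matplotlib 3.10.9, R 4.3.3 and limma 3.58.1 were used.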

Additional observations from a re-analysis of the deposited data

How the results depend on the processing

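Both losses kept their direction under the 7 alternatives of signal, centring, flags, dim probes and intensity trend, and the causes of the shifts below were not tested. With normexp correction the medians of chromosome 19 were -0.101 at 80, -0.737 at 160 and -0.018 at 40 mg/kg/day, and 0.001 in vehicle, and at 80 the share in called losses and the number of genes inside losses were 0 and 0. Chromosome 6 at 80 mg/kg/day was 0.15 there. Centred on the mode, the medians were -0.411, -0.696 and 0.023, and 0.019 in vehicle. Centred on the autosomes other than 1, 3, 6, 8, 10, 12, 15, 16 and 19 they were -0.427, -0.751 and -0.004, and 0.007 in vehicle. With lowess on liver intensity they were -0.755 at 160 and -0.021 at 40 mg/kg/day. A call size of 0.5 left 0 genes and a share of 0 at 80 mg/kg/day. Calling genes by their own mean gave 342 at 80 and 414 at 160 mg/kg/day, of 433 chromosome 19 genes with 3 or more probes. It gave up to 14 in 1 of the other 4 tumours. The share of all genes on the array by that rule was not counted, so these counts are read no further. Without each vehicle tumour in turn, the median minus the vehicle mean ran from -0.446 to -0.443 at 80, from -0.739 to -0.736 at 160 and from -0.032 to -0.029 at 40 mg/kg/day. Sufu minus the vehicle mean ran from -0.463 to -0.071 at 80, the last under normexp, and from -0.743 to -0.488 at 160 mg/kg/day. The Gnaq interval minus its flanks ran from 0.049 (normexp) to 0.27. A penalty factor of 6 gave a share of 100 percent and 835 genes at 80 mg/kg/day, with the interval no longer separate. Subtracting the vehicle mean or the 40 mg/kg/day tumour before segmentation, chosen after seeing the data, left every count within 1.5 times. The GC alternative and the expression alternatives were not run, for want of a genome of build mm8 and of probe-set names. No paired analysis was possible because each resistant dose had 1 DNA tumour, so the DNA groups share fewer than 2 replicate numbers, and the expression comparisons were not made. Median raw signal of the tumour channel on chromosome 19 was 5.81 times local background at 80 and 5.35 at 160 mg/kg/day, against 7.86 at 40 and 6.86 to 7.10 in vehicle.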
